A study of Mus musculus with 12 samples.

Results

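Collagen chain genes were followed in cultured mouse fibro/adipogenic progenitors (FAPs), the Pdgfra-positive mesenchymal cells of muscle that can become fibroblasts or fat cells. They were taken as the transcript clusters of the array, a cluster being the set of probes summarised for one transcript, whose single gene symbol has the form Col, a number, a and a number. This gave 46 clusters of 44 genes among 21789 clusters with a single symbol, which cover 19938 genes. The brightest cluster stands for each gene, and only Col6a5 and Col6a6 had a further one. Of the 44 genes, 11 encode fibrillar chains, 9 network chains, 9 FACIT chains and 15 chains of other kinds.

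The 12 arrays (Affymetrix Mouse Gene 1.0 ST) hold 6 groups of 2. Cells of uninjured hindlimb muscle of wild-type male C57/Bl6 mice aged 8 to 12 weeks grew for 2.5 days and were transfected at 10 µM with an antisense oligonucleotide (AMO), called pA, 5'ss or control. After 48 hours they were transfected again with the same AMO, together with PDGF-AA or without it, for another 48 hours. The groups are pA AMO with PDGF-AA, pA AMO without it, 5'ss AMO with PDGF-AA, 5'ss AMO without it, control AMO with PDGF-AA, and control AMO without it. The labels give the PDGF-AA dose as 50 uM, and every group, the controls included, received an AMO. Each replicate pools cells of 2 mice, and the series' title ties the AMOs to intronic polyadenylation of the PDGF receptor alpha.

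Collagens are secreted proteins whose chains wind around each other into a helix, and they form most of the protein of the muscle's connective tissue. Fibrillar chains build rope-like fibrils, network chains build sheets such as the basement membrane, and FACIT chains sit on the surface of fibrils. FAPs are a main source of these proteins in muscle, and PDGF-AA is a ligand of the receptor Pdgfra on their surface.

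Values are log2 expression as the authors normalised it with RMA, and all differences below are on that scale. A difference was called at an adjusted p under 0.05 in limma over all 21789 clusters. Array medians lay between 6.04 and 6.23. A level below 5.59, the 95th percentile of 1035 olfactory receptor clusters, was taken as dim, and of the collagen genes only Col10a1 averaged below it. Of 8 listed FAP and fibroblast markers 7 could be matched, and all of these were above this mark, with Pdgfra averaging 12.81. Of the 6 endothelial markers 3 were dim, Pecam1 (5.57) among them, while Tek (8.80) and Cdh5 (7.20) were well above the mark. Of the 6 macrophage and leukocyte markers 3 were dim, Ptprc (5.01) among them, while Cd68 (7.23) and Cd14 (6.75) were above it. The mean of the 8 myogenic markers ran from 6.75 to 7.25 on the arrays with PDGF-AA and from 6.48 to 7.62 on those without. The control AMO replicate 1 array with PDGF-AA stood apart most, with the lowest value of the 12 arrays for 19.2% of all clusters and the highest for 19.8%. It was the lowest for 2 and the highest for 14 of the 44 collagen genes. In such bulk samples fewer cells of a type and less RNA per cell cannot be told apart.

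Of the chains of the main fibrils, Col3a1 and Col1a2 varied least over the 12 arrays, while Col1a1 and Col5a2 ran over wider ranges. Col3a1, the single chain of type III collagen, ran from 12.94 to 13.10 with a median of 13.03. Col1a2, a chain of type I collagen, ran from 12.34 to 12.61 with a median of 12.54, and its partner Col1a1 from 11.90 to 12.45 with a median of 12.25. The type V chains, which set fibril diameter, ran from 9.02 to 9.37 for Col5a1, from 10.38 to 10.98 for Col5a2 and from 7.71 to 8.02 for Col5a3. The spread over the 12 arrays was wider for a few chains outside the fibrillar class. The SD was 0.56 for Col15a1, 0.32 for Col14a1, 0.27 for Col8a2, 0.22 for Col12a1 and Col9a2 and 0.21 for Col8a1. It was 0.050 for Col3a1, the chain with the narrowest of the fibrillar ranges given here. The plot of 6 genes shows where these values fall.

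**Figure D1:**
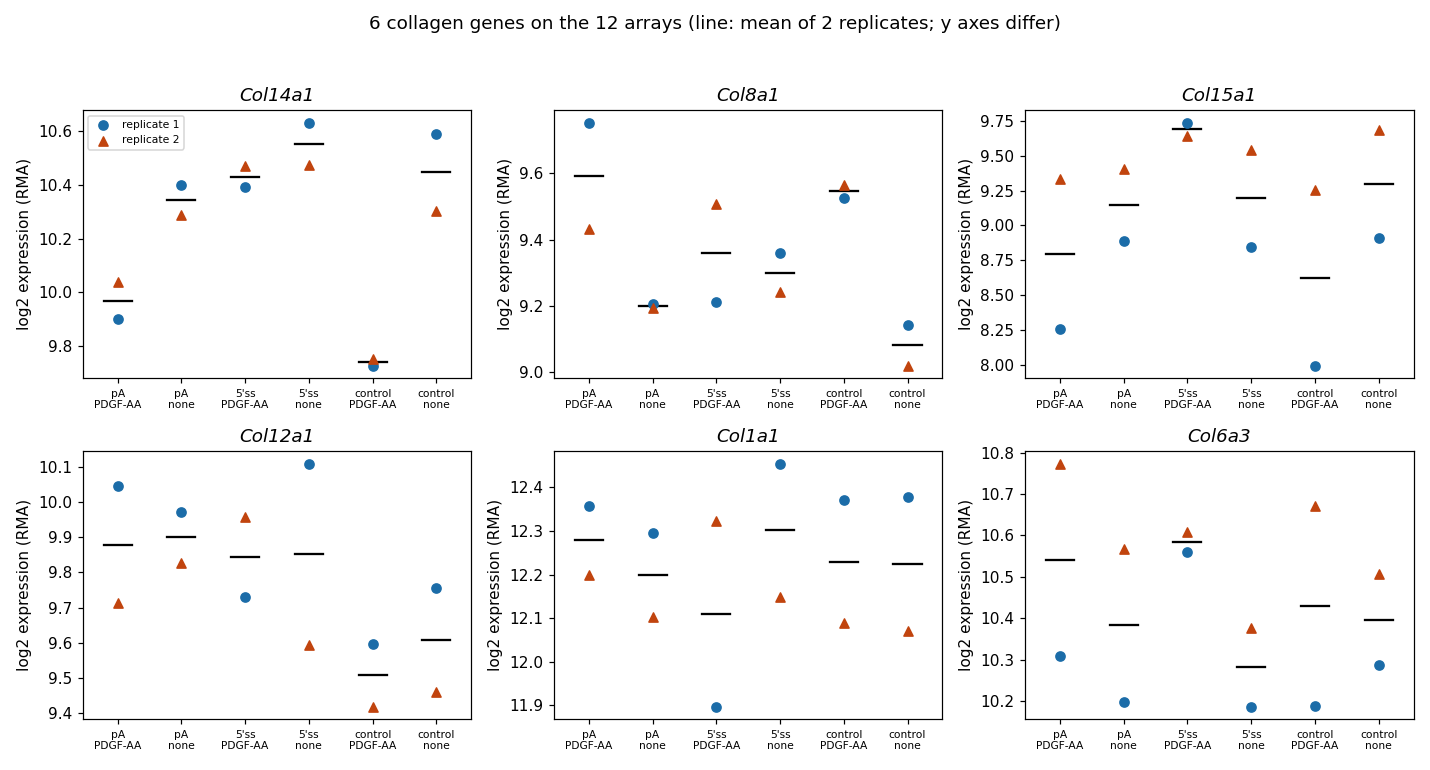
Log2 expression of 6 collagen genes on the 12 arrays by AMO and PDGF-AA (circles, replicate 1; triangles, replicate 2; line, mean of both; the y axes differ). Col14a1 is at 9.73 and 9.75 in the control AMO arrays with PDGF-AA and at 10.59 and 10.30 in those without, and Col15a1 spans 7.99 to 9.74.

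The first question was what PDGF-AA did to the collagen genes, taken over all 3 AMOs. No collagen gene passed the test, and 0% of the 21789 clusters did. The median difference was 0.018 over the 44 genes and 0.0014 over all clusters, with 26 genes higher and 18 lower with PDGF-AA. Leaving out 1 array in turn gave 18 to 36 higher. At an unadjusted p under 0.05 there were 2 collagen genes, Col14a1 and Col8a1, against 3.39% of all clusters, and with replicate number as a fixed block there were 5, against 8.02%. With that block no collagen gene passed at an adjusted p under 0.05 here (0.0964% of all clusters) or in any other treatment comparison below. The block called 0.101% of all clusters for 5'ss against control with PDGF-AA, 0.00459% for the same without PDGF-AA, 0.0138% for their average, 0.0275% for pA against 5'ss and 0% in the others. The class medians were 0.012 for fibrillar, 0.046 for network, 0.040 for FACIT and 0.046 for the other chains. The 11 fibrillar chains stayed within -0.04 and 0.07, the narrowest range of the 4 classes.

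**Figure D2:**
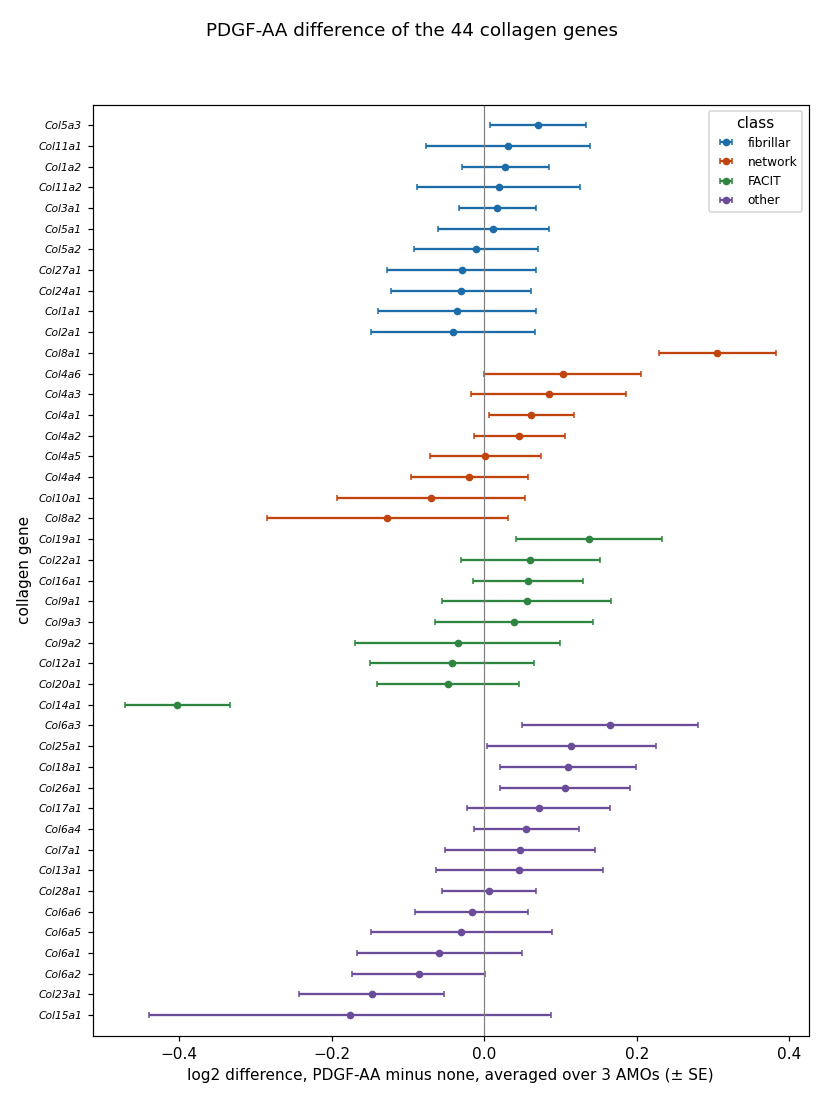
Difference in log2 expression with PDGF-AA minus without, averaged over the 3 AMOs, for each of the 44 collagen genes by class (points, estimate; bars, SE from limma). Col14a1 lies at -0.40 and Col8a1 at 0.31, and the 11 fibrillar chains lie between -0.04 and 0.07.

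Col14a1 encodes the chain of type XIV collagen, a FACIT collagen that binds to type I fibrils in tendon, skin and muscle connective tissue. It read 9.90 and 10.04 with PDGF-AA and the pA AMO, against 10.40 and 10.29 with the pA AMO alone. It read 10.39 and 10.47 with PDGF-AA and the 5'ss AMO, against 10.63 and 10.47 with the 5'ss AMO alone. It read 9.73 and 9.75 with PDGF-AA and the control AMO, against 10.59 and 10.30 with the control AMO alone. The values with PDGF-AA lay below those without it under all 3 AMOs, but under the 5'ss AMO the nearest arrays, both of replicate 2, were nearly level. The average difference was -0.40 ± 0.069 (SE, 6 arrays against 6) with an adjusted p of 0.336 in limma. With replicate number as a fixed block the adjusted p was 0.0689, with it as a random block 0.0434 (a rule that called 0.138% of all clusters), and with trended and robust moderation 0.0104 (0.179%). The estimate of -0.40 is the same in these 4 fits, which differ in how the spread is modelled. It was also -0.40 without the control AMO replicate 1 array with PDGF-AA.

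Col14a1 was lower with PDGF-AA in all 6 pairs of arrays that share an AMO and a replicate number. Among collagen genes only Col23a1, a transmembrane collagen, was also lower in all 6 pairs, and 2.3% of all clusters were. No collagen gene was higher in all 6, while 1.68% of all clusters were. The differences of Col14a1 in the pairs were -0.50 and -0.25 with the pA AMO, -0.24 and -0.0034 with the 5'ss AMO, and -0.86 and -0.55 with the control AMO. Those of Col23a1 ran from -0.27 to -0.0082, with an average of -0.15 ± 0.095 (SE) that did not pass the test (adjusted p 1.00 in limma).

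**Figure D3:**
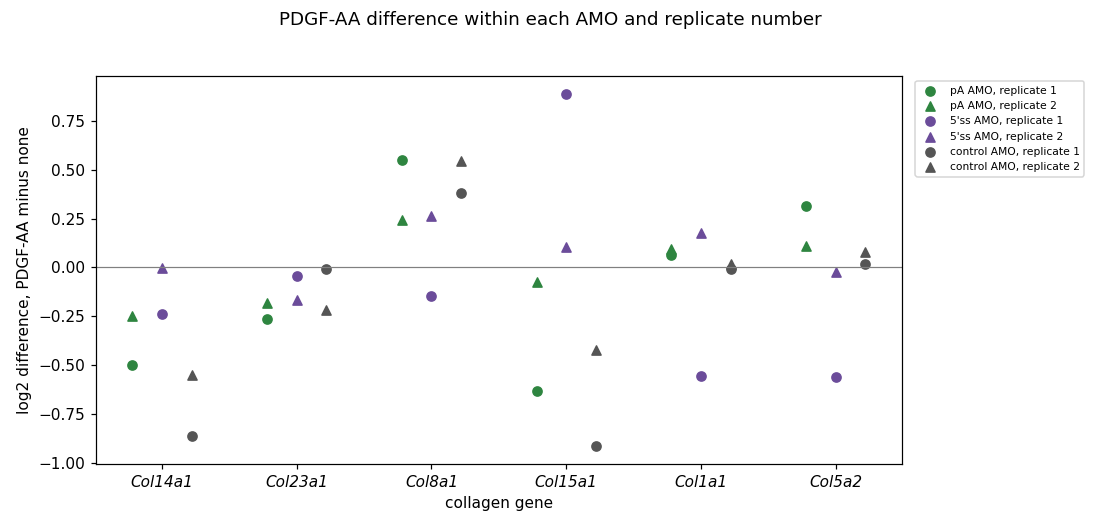
Log2 difference with PDGF-AA minus without in each pair of arrays of the same AMO and replicate number, for 6 collagen genes (green, pA; purple, 5'ss; grey, control; circles, replicate 1; triangles, replicate 2). All 6 points of Col14a1 and of Col23a1 lie below 0, and the 5'ss replicate 1 point of Col15a1 lies at 0.89 while its control points lie at -0.92 and -0.42.

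Col8a1 encodes a chain of type VIII collagen, a short network-forming collagen of vessel walls and matrix under remodelling. It read 9.75 and 9.43 with PDGF-AA and the pA AMO, against 9.20 and 9.19 with the pA AMO alone. It read 9.21 and 9.51 with PDGF-AA and the 5'ss AMO, against 9.36 and 9.24 with the 5'ss AMO alone. It read 9.52 and 9.57 with PDGF-AA and the control AMO, against 9.14 and 9.02 with the control AMO alone. The groups were separate under the pA and control AMOs and overlapped under the 5'ss AMO. The average difference was 0.31 ± 0.077 (SE), with an adjusted p of 0.618 in limma and 0.227 with the replicate block. Its partner chain Col8a2 did not share this difference, with a value of -0.13 ± 0.16 (SE).

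The stretch before the RefSeq start of Col8a1 is shown because this gene had the highest PDGF-AA difference of the collagen genes. It covers the 250 bases upstream of the start, read 5′ to 3′ along the gene, at chr16:57754738-57754987 on the minus strand of GRCm38.p6.
Col8a1: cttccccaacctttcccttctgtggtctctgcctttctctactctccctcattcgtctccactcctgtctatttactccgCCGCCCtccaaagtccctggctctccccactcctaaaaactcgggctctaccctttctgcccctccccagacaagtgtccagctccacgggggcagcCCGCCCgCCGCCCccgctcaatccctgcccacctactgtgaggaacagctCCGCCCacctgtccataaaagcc
Capitals mark matches, on either strand, to the GC box GGGCGG, of which there are 4. The other motifs searched, on both strands, were the TATA box TATAAA, the CCAAT box CCAAT and the AP-1 motif TGACTCA, and none of these letters is in the Col8a1 window. A promoter entry was found for 35 of the 44 collagen genes. Of these windows 21 (60%) hold the GC box, against 35.4% of the windows of 27025 genes. The TATA box is in 14.3% of the collagen windows and 14.3% of all, the CCAAT box in 37.1% and 37.5%, and the AP-1 motif in 2.86% and 5.16%. These are matches of letters and were not tested as binding sites.

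Of the basement membrane chains Col4a1 and Col4a2, the differences averaged over the AMOs were 0.061 ± 0.056 and 0.046 ± 0.059 (SE). These chains of type IV collagen assemble together, and their genes lie head to head. With the pA AMO Col4a1 differed by 0.17 in both pairs and Col4a2 by 0.16 and 0.17. With the 5'ss AMO Col4a1 differed by 0.0004 and -0.016 and Col4a2 by -0.22 and 0.043. With the control AMO Col4a1 differed by -0.029 and 0.066 and Col4a2 by 0.016 and 0.10. Of the type VI chains, which form beaded filaments around muscle fibres, Col6a1 differed by -0.059 ± 0.11, Col6a2 by -0.086 ± 0.087 and Col6a3 by 0.16 ± 0.12 (SE). Col12a1, a FACIT chain of tendon and muscle sheaths, differed by -0.043 ± 0.11, and Col18a1, the source of the fragment endostatin, by 0.11 ± 0.089 (SE).

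The PDGF-AA difference was also taken with each AMO alone. With the control AMO no collagen gene passed the test (0% of all clusters), and 2 had an unadjusted p under 0.05 (4.81%). Of the 44 genes, 33 were higher with PDGF-AA, and the median was 0.055 against 0.012 over all clusters. All 11 fibrillar chains were among the 33, by 0.0051 for Col1a1 up to 0.16 for Col5a3. Without the control AMO replicate 1 array with PDGF-AA, 19 of the 44 genes and 4 of the 11 fibrillar chains were higher, and the collagen median was -0.035. Col14a1 differed by -0.71 ± 0.12 (SE; -0.69 without the control AMO replicate 1 array with PDGF-AA), with an adjusted p of 0.467 in limma, 0.0755 with the replicate block and 0.0189 with trended and robust moderation, which called 0.0597% of all clusters. Col8a1 differed by 0.46 ± 0.13 (SE, adjusted p 0.79), and Col4a3, a chain of kidney and lung basement membranes, by 0.27 ± 0.18 (SE).

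With the pA AMO no collagen gene passed (0% of all clusters), and 2 had an unadjusted p under 0.05 (2.37%). Of the 44, 28 were lower with PDGF-AA and the median was -0.020 against -0.0064 over all clusters. Leaving out 1 array in turn gave 10 to 32 lower, and the median was 0.11 without the pA AMO replicate 1 array without PDGF-AA. Col14a1 differed by -0.38 ± 0.12 and Col8a1 by 0.39 ± 0.13 (SE). With the 5'ss AMO no collagen gene passed either (0% of all clusters), none had an unadjusted p under 0.05 (1.64%), and the median was -0.0087 against -0.0051 over all clusters. There 10 of 11 fibrillar chains and 7 of 9 network chains were lower with PDGF-AA, while 13 of 15 other chains were higher. Leaving out 1 array in turn gave 5 to 10 fibrillar and 2 to 7 network chains lower, and 9 to 13 other chains higher. Col5a2 differed by -0.29 ± 0.14, Col6a3 by 0.30 ± 0.20, and Col18a1 by 0.20 ± 0.15 (SE).

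Both replicate 1 arrays with the 5'ss AMO weigh on these values. The one without PDGF-AA was the highest of the 12 arrays for 9 collagen genes (5.5% of all clusters). Its fibrillar chains had a median deviation of 0.19 from their means over the 12 arrays, the highest of any array. The one with PDGF-AA was the lowest of the 12 arrays for 4 collagen genes, as it was for 8.23% of all clusters. These were Col1a1 (11.90), Col1a2 (12.34), Col4a2 (10.28) and Col5a2 (10.38). The array with PDGF-AA was the highest for Col15a1 (9.74) and Col28a1 (8.09), and for 5.03% of all clusters. Adipoq, the adipocyte hormone adiponectin, chosen after its values were seen, read 9.31 there and at most 8.02 on the other arrays. In that replicate Col1a1 differed by -0.56 and Col5a2 by -0.56 with PDGF-AA, against 0.17 and -0.024 in replicate 2. Without the array with PDGF-AA the fibrillar median with the 5'ss AMO was -0.049 in place of -0.072, and Col5a2 differed by -0.12 in place of -0.29. When the replicate 1 array without PDGF-AA was left out instead, that median turned positive. The part of what Adipoq marks in these differences was not tested.

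The next question was whether the PDGF-AA difference depended on the AMO, tested as a difference between differences. No collagen gene passed for pA against control (0% of all clusters), for 5'ss against control (0%) or for pA against 5'ss (0%). At an unadjusted p under 0.05 there were 0, 1 and 1 collagen genes in these, against 2.59%, 2.95% and 1.92% of all clusters. The smallest p belonged to Col14a1 for 5'ss against control, where the PDGF-AA difference was -0.12 with the 5'ss AMO and -0.71 with the control AMO. The difference between them was 0.59 ± 0.17 (SE), with an unadjusted p of 0.00565 and an adjusted p of 1.00 in limma. For Col8a1 the values were 0.059 with the 5'ss AMO and 0.46 with the control AMO, a difference of -0.40 ± 0.19 (SE). All 11 fibrillar chains (6 to 11 with 1 array left out) had a lower PDGF-AA difference with the 5'ss than with the control AMO. Their median was -0.14 (-0.017 over all clusters), and it became -0.11 without the 5'ss replicate 1 array with PDGF-AA. Without the control AMO replicate 1 array with PDGF-AA it was -0.055, with 9 of the 11 chains lower. For pA against 5'ss, Col5a2 differed by 0.50 ± 0.20 (SE), and by 0.33 without the 5'ss replicate 1 array with PDGF-AA.

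The AMOs were then compared with each other. For 5'ss against control, averaged over PDGF-AA, no collagen gene passed (0% of all clusters), 1 had an unadjusted p under 0.05 (4.8%), and the median was -0.019 against -0.0084 over all clusters. Col14a1 differed by 0.40 ± 0.084 (SE, adjusted p 0.589). With PDGF-AA present no collagen gene passed either (0% of all clusters), and 2, Col14a1 and Col15a1, had an unadjusted p under 0.05 (6%). Here Col14a1 differed by 0.69 ± 0.12 (SE, adjusted p 0.272 in limma), and by 0.68 without the control AMO replicate 1 array with PDGF-AA. The adjusted p was 0.0624 with the fixed replicate block, 0.0449 with the random block (0.0964% of all clusters) and 0.0359 with trended and robust moderation (0.0275%). This comparison shares the control AMO arrays with PDGF-AA with the one of PDGF-AA under the control AMO, so these results on Col14a1 are not independent. Without PDGF-AA the 5'ss and control AMOs differed in Col14a1 by 0.11 ± 0.12 (SE). No collagen gene passed there (0% of all clusters), and none had an unadjusted p under 0.05 (2.07%).

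Col15a1 encodes the chain of type XV collagen, a multiplexin that links basement membranes to the fibrils around muscle fibres and capillaries. With PDGF-AA it read 9.74 and 9.64 with the 5'ss AMO, 8.26 and 9.33 with the pA AMO, and 7.99 and 9.26 with the control AMO. Without PDGF-AA it read 8.85 and 9.54 with the 5'ss AMO, 8.89 and 9.40 with the pA AMO, and 8.91 and 9.68 with the control AMO. In every group but the 5'ss AMO with PDGF-AA, replicate 2 was higher by 0.52 to 1.26, and in that group it was lower by 0.095. For 5'ss against control with PDGF-AA the difference was 1.06 ± 0.46 (SE, adjusted p 0.823), with 1.74 in replicate 1 and 0.39 in replicate 2. It was 0.43 without the control AMO replicate 1 array with PDGF-AA, and 1.70 without the replicate 2 array of that group. Adipoq, chosen after its values were seen, read 9.31 and 7.41 in the 5'ss AMO arrays with PDGF-AA. In the control AMO arrays with PDGF-AA it read 5.53 and 8.02. Like Col15a1 and Col18a1, it was higher in replicate 2 in every group but the 5'ss AMO with PDGF-AA. The share of all clusters with this pattern was not counted. The part of what Adipoq marks in the Col15a1 difference was not tested.

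The 250 bases before the RefSeq start of Col15a1 are shown because this gene had the widest spread of all 44. They lie at chr4:47207762-47208011 on the plus strand of GRCm38.p6.
Col15a1: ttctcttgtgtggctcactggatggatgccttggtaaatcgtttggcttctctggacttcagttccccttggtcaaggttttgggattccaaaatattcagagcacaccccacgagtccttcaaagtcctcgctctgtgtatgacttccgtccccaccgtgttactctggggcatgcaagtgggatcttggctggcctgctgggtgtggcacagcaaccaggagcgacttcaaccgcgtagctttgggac
None of the letters of the 4 motifs is in this window, so no base is in capitals.

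For pA against control no collagen gene passed when averaged over PDGF-AA (0% of all clusters), with PDGF-AA (0%) or without it (0%), and the averaged median was -0.028 against -0.011 over all clusters. An unadjusted p under 0.05 was found for 1 collagen gene in the average (3.25% of all clusters), 0 with PDGF-AA (4.89%) and 0 without it (1.49%). Col12a1, the chain of type XII collagen, had the smallest p in the average and without PDGF-AA. With PDGF-AA the smallest p was that of Col28a1, at -0.22 ± 0.11 (SE, unadjusted p 0.0622 in limma). Col12a1 with PDGF-AA read 10.04 and 9.71 with the pA AMO and 9.73 and 9.96 with the 5'ss AMO, against 9.60 and 9.42 with the control AMO. Without PDGF-AA it read 9.97 and 9.83 with the pA AMO and 10.11 and 9.59 with the 5'ss AMO, against 9.76 and 9.46 with the control AMO. With PDGF-AA the pA and 5'ss values all lay above both control values, and without it the 5'ss values overlapped the control values. Its difference averaged over PDGF-AA was 0.33 ± 0.13 (SE, adjusted p 1.00) for pA and 0.29 ± 0.13 (SE, adjusted p 0.995) for 5'ss, and these share the control arrays. Col12a1 was higher in all 4 pairs with the pA AMO, which held for it alone of the 44 genes and for 5.92% of all clusters. With the 5'ss AMO it was higher in all 4 pairs along with Col14a1 and Col6a5, against 7.78% of all clusters. Lower in all 4 pairs were 5 collagen genes with the pA AMO, Col1a2, Col6a2 and Col18a1 among them (9.1% of all clusters), and 1, Col4a5, with the 5'ss AMO (9.07%). For pA against 5'ss no collagen gene passed (0% of all clusters), 1 had an unadjusted p under 0.05 (3.47%), and the smallest p was that of Col14a1, at -0.34 ± 0.084 (SE, adjusted p 1.00).

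More collagen genes differed by replicate number than by any treatment. In the fit with the replicate block, 27 of the 44 differed between replicate 2 and replicate 1, where 32.2% of all clusters did, and 31 had an unadjusted p under 0.05 (46.4%). Of the 27, 23 were lower in replicate 2 (16.9% of all clusters), by 0.15 to 0.44, and 4 were higher (15.3%). The median over the 44 genes was -0.19, against 0.0042 over all clusters. The calls covered 5 of 11 fibrillar, 4 of 9 network, 6 of 9 FACIT and 12 of 15 other chains. Lower in replicate 2 in all 6 groups were 22 genes (14% of all clusters), and higher in all 6 were Col6a1, Col6a2 and Col6a3 (17%). When each array was centred on its own median, 17 collagen genes were called in place of 27. The share of all clusters called after centring was not counted.

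The direction went with mean signal. Of the 29 collagen genes averaging 8 or less, a level set after the values were seen, 28 were lower in replicate 2 and 23 were called, with a median of -0.24. The median of all 15168 clusters in that range was -0.073, and array medians were 6.04 to 6.10 in replicate 2 and 6.14 to 6.23 in replicate 1. Of the 15 genes above 8, 7 were higher and 8 lower in replicate 2, and 4 were called, all higher. The median was -0.016 over these 15 genes and 0.090 over all 6621 clusters in that range. The share of all clusters called within each range was not counted. Col9a2, a chain of cartilage collagen, had the smallest p, with 7.29 in replicate 2 and 7.68 in replicate 1 (-0.39 ± 0.047, SE, adjusted p 0.00557). Col8a2 averaged 6.86 in replicate 2 and 7.29 in replicate 1 (-0.44 ± 0.076, SE, adjusted p 0.0074). The labels do not say what arrays of the same replicate number share.

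Cell type markers were called by replicate number at no higher a rate than all clusters. Of the 55 matched markers 15 were called, where 32.2% of all clusters were. Among the 15 markers, 5 were higher in replicate 2 (15.3% of all clusters) and 10 lower (16.9%). Over all clusters the median difference was -0.073 at a mean level of 8 or less and 0.090 above it. All 8 myogenic markers were lower in replicate 2, and Pax7 (-0.36 ± 0.072, SE, adjusted p 0.00966) and Myf5 (-0.34 ± 0.057, SE, adjusted p 0.00702) of muscle stem cells were called, although Myf5 was dim. The mean of these 8 ran from 6.48 to 7.04 in replicate 2 and from 6.65 to 7.62 in replicate 1. Of the 7 FAP and fibroblast markers 6 were higher in replicate 2, and Lum (0.35 ± 0.048, SE, adjusted p 0.00569) and Dpt (0.34 ± 0.093, SE, adjusted p 0.025) were called. Their mean ran from 10.77 to 10.91 in replicate 2 and from 10.54 to 10.82 in replicate 1. Of the 6 tendon markers Comp and Tnmd were called higher, by 0.46 and 0.24, and Scx lower, at -0.30. The other 8 called were 2 endothelial, 2 cartilage and 2 epithelial markers, 1 of macrophages and 1 of Schwann cells. The part of these cell types in the replicate difference of the collagen genes was not tested.

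**Figure D4:**
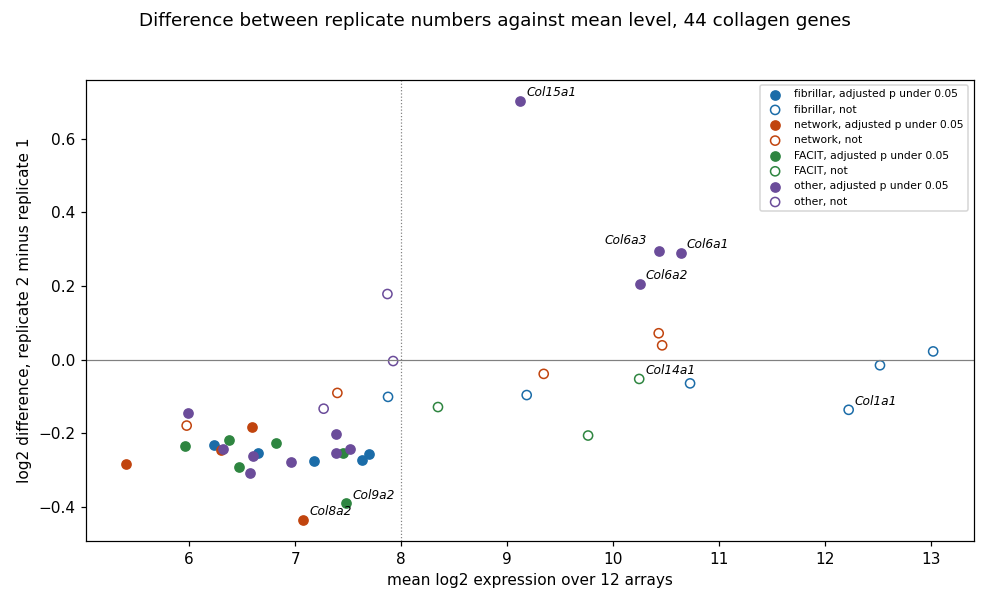
Log2 difference of replicate 2 minus replicate 1 against mean log2 expression for the 44 collagen genes, coloured by class (filled, adjusted p under 0.05; dotted line at 8). Of 29 genes at or left of the line 28 lie below 0, while Col15a1 (0.70), Col6a1 (0.29), Col6a2 (0.21) and Col6a3 (0.30) lie above it and are filled.

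The 3 main type VI chains differed together. Col6a1 averaged 10.79 in replicate 2 and 10.50 in replicate 1, a difference of 0.29 ± 0.051 (SE, adjusted p 0.00746 in limma with the block). Col6a2 averaged 10.36 in replicate 2 and 10.15 in replicate 1, a difference of 0.21 ± 0.052 (SE, adjusted p 0.0188), and Col6a3 averaged 10.58 in replicate 2 and 10.29 in replicate 1, a difference of 0.30 ± 0.064 (SE, adjusted p 0.0119). Across the 6 groups their differences ran from 0.17 to 0.49 for Col6a1, from 0.12 to 0.42 for Col6a2 and from 0.049 to 0.48 for Col6a3. The windows before their starts are shown for comparison, since these chains of one protein were the only collagen genes higher in replicate 2 in all 6 groups. They lie on the minus strand of GRCm38.p6 at chr10:76726045-76726294 for Col6a1, chr10:76623405-76623654 for Col6a2 and chr1:90843972-90844221 for Col6a3.
Col6a1: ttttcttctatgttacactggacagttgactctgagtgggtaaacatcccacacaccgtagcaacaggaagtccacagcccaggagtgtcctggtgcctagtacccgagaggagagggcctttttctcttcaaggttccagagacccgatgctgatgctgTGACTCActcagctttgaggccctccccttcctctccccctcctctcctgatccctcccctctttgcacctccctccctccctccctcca
Col6a2: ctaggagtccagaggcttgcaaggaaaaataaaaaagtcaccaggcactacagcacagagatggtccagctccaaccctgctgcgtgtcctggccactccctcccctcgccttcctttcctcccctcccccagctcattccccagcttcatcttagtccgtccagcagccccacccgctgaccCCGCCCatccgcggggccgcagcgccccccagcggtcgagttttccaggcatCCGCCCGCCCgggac
Col6a3: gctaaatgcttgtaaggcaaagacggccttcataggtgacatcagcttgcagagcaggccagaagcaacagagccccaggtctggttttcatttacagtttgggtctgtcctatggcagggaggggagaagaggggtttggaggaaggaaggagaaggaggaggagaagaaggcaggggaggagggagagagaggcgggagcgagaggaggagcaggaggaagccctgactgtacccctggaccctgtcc
Capitals mark the AP-1 motif in Col6a1, which no other collagen window holds, and 3 GC boxes on the opposite strand in Col6a2, of which a pair overlap. The window of Col6a3 holds none of the 4 motifs.

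The genes that assemble, cut and bind collagen were read beside the chains. For PDGF-AA averaged over the AMOs, none of the 31 matched genes of collagen assembly, 13 of breakdown, 8 receptors or 14 other basement membrane genes passed, with or without the replicate block. Of the assembly genes 15 were higher and 16 lower with PDGF-AA. The prolyl hydroxylase subunit P4ha1 differed by 0.16 ± 0.061 and its relative P4ha3 by -0.41 ± 0.16 (SE). Of the breakdown genes 5 were higher and 8 lower, and the collagen uptake receptor Mrc2 differed by 0.24 ± 0.062 (SE, adjusted p 0.626). Mrc2 read 11.11 and 10.92 with PDGF-AA and the pA AMO, against 10.61 and 10.56 with the pA AMO alone, and 11.03 and 10.89 with PDGF-AA and the control AMO, against 10.71 and 10.54 with the control AMO alone. With the 5'ss AMO it read 10.51 and 10.56 with PDGF-AA, against 10.58 and 10.55 without.

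Among the receptors, the integrin subunits Itga11 and Itga1, which bind fibrillar and basement membrane collagens, differed by -0.30 ± 0.057 (SE, adjusted p 0.342) and -0.39 ± 0.085 (SE, adjusted p 0.412) with PDGF-AA. Itga11 had an adjusted p of 0.0783 with the replicate block and 0.0174 with trended and robust moderation. Of the 14 basement membrane genes 12 were higher (9 to 13 with 1 array left out), with a median of 0.067, led by the laminin chain Lama2 at 0.26 ± 0.069 and nidogen Nid1 at 0.19 ± 0.050 (SE). Nid1 had an adjusted p of 0.725 in limma and 0.0131 with trended and robust moderation. For 5'ss against control, Agrn, the proteoglycan agrin of the neuromuscular junction, differed by -0.46 ± 0.080 (SE, adjusted p 0.357).

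Comp, a matrix protein of tendon and cartilage that binds fibrillar collagen, was the one gene of the other lists to pass with the replicate block in a treatment comparison. None passed in the limma fit without a block and with standard moderation. It read 8.08 and 8.81 with PDGF-AA and the pA AMO, against 9.76 and 9.85 with the pA AMO alone. It read 9.82 and 10.47 with PDGF-AA and the 5'ss AMO, against 9.95 and 10.18 with the 5'ss AMO alone. It read 8.43 and 9.11 with PDGF-AA and the control AMO, against 9.93 and 10.30 with the control AMO alone. As with Col14a1, the values with PDGF-AA were below those without it under the pA and control AMOs. Under the 5'ss AMO the values of Col14a1 did not overlap, while those of Comp did. The average difference of Comp was -0.88 ± 0.17 (SE), with an adjusted p of 0.342 in limma and 0.041 with the block, which called 0.0964% of all clusters. For 5'ss against control with PDGF-AA it was 1.37 ± 0.29 (SE), with an adjusted p of 0.464 in limma and 0.0255 with the block (0.101% of all clusters). For pA against 5'ss averaged over PDGF-AA it was -0.98 ± 0.21 (SE), with an adjusted p of 0.846 and 0.0347 with the block (0.0275% of all clusters).

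Comp stands in the list of 6 tendon markers, all matched and 1 of them dim. Their mean per array ran from 6.93 to 7.55 with PDGF-AA and from 7.29 to 7.63 without, and the part of tendon cells in the values of Col14a1 was not tested.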

How the data were processed

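RNA of 12 cultures was hybridised to 12 arrays, 2 for each of 6 groups. The deposited values are log2 expression per transcript cluster, which the authors computed by RMA. The submitters' processing notes name Affymetrix Expression Console for this, with no version. RMA corrects background, quantile-normalises the arrays together and summarises probes, which is meant to remove a shift shared by all genes of an array. The array medians of the deposited values still differed, at 6.04 to 6.10 in replicate 2 and 6.14 to 6.23 in replicate 1. Array number limits the precision.

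Of 35556 clusters, 21789 carried 1 gene symbol in the platform annotation, 1621 several and 12146 none listed. Clusters with 1 symbol were fitted with limma 3.58.1 in R 4.3.3 as a means model of 6 groups with moderated tests and Benjamini-Hochberg adjustment over all of them, and SE is limma's moderated SE. The fit was tested on simulated data with independent noise on each array. That test does not show how the fit behaves where arrays deviate together. Same-numbered arrays deviated together in all 15 pairs of groups (correlations of 0.20 to 0.61, above the criterion of 0.1), which the labels do not explain, so fits with replicate number as a block were run too. Genes named were the chains of types I, III, V, VI, VIII, XII, XIV, XV and XVIII and Col4a1 and Col4a2, the 3 collagen genes of smallest p in a comparison, and of each other list those passing or up to 2 of smallest p. The members and lists were chosen with earlier results of these data known. Promoter windows come from RefSeq on GRCm38.p6.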

Additional observations from a re-analysis of the deposited data

How the results depend on the processing

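No collagen gene passed in the 14 treatment comparisons in the main analysis or with the fixed replicate block, which gave 0 calls in each. At an unadjusted p under 0.05 there were 2 for PDGF-AA averaged over the AMOs, or 5 with the replicate block. The random replicate block called 1 gene, Col14a1, for PDGF-AA averaged over the AMOs and for 5'ss against control with PDGF-AA. Trended and robust moderation called 1, again Col14a1, in those 2 comparisons and for PDGF-AA with the control AMO. The other alternatives were a filter on dim clusters, all clusters tested, repeated quantile normalisation, median centring, array weights, a fit of the compared arrays alone, the mean of a gene's clusters, and each array left out in turn. None of them called a collagen gene in a treatment comparison. For replicate 2 against replicate 1, centring on array medians gave 17 calls in place of 27, with the share of all clusters called not counted.

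In all 14 treatment comparisons the collagen median changed sign when some 1 array was left out. For PDGF-AA it lay between -0.017 and 0.045 averaged over the AMOs, -0.035 and 0.14 with the control AMO, -0.12 and 0.11 with the pA AMO, and -0.14 and 0.13 with the 5'ss AMO. For the PDGF-AA difference it lay between -0.17 and 0.067 with pA minus control, -0.18 and 0.065 with 5'ss minus control, and -0.19 and 0.12 with pA minus 5'ss. That of replicate 2 against replicate 1 lay between -0.22 and -0.17. Col12a1 for 5'ss against control without PDGF-AA ran from -0.014 to 0.50, and turned sign without the 5'ss AMO replicate 1 array without PDGF-AA. Col14a1 for PDGF-AA averaged over the AMOs ran from -0.45 to -0.35, and Col8a1 from 0.25 to 0.36. Each fit had 6 residual degrees of freedom, or 5 with the replicate block.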
